A study of Mus musculus with 12 samples.

Results

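The MAP kinase phosphatases and the Sprouty proteins are the brakes of MAP kinase signaling, and the RNA of 10 of them (Dusp1, Dusp4, Dusp5, Dusp6, Dusp8, Dusp10, Dusp16, Spry1, Spry2 and Spry4) was examined in immortalized mouse mesenchymal stem/stromal cells (MSCs) with and without p38α. Every probeset that the array's annotation assigned to 1 of these symbols alone was taken, which gave 17 probesets of 45037 tested, for 9 of the 10 genes. Dusp5 had no such probeset and was not measured here. There were 12 arrays: 4 held RNA of untreated WT MSCs and 2 of untreated p38α∆ MSCs, and each genotype had 3 arrays after TGF-β. The mice from whose bone marrow the cells were grown (strain label FVB/NJ) were Mapk14 lox/lox, and the cells were immortalized by serial passage. WT MSCs thus held the floxed Mapk14 alleles too and received vehicle, whereas the p38α∆ MSCs received 4-hydroxytamoxifen. All cells were kept in 0.5% serum, and TGF-β was given at 5 ng/ml for 20 h. Values are log2 RMA intensities, 1 per probeset and array.

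Growth factors and TGF-β act in part through MAP kinases: ERK, mostly downstream of receptor tyrosine kinases and Ras, and JNK and p38, which also answer to stress. The dual-specificity phosphatases (Dusp genes) switch MAP kinases off by removing phosphate from both residues of their activation loop, and many of their genes are themselves turned on by MAP kinase signaling, which closes a negative feedback loop. Sprouty proteins act further upstream, between growth factor receptors and Ras/Raf, and are likewise induced by the pathway that they restrain.

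Several facts of the whole series bear on these genes. Mapk14, which encodes p38α, had 6 probesets, none of which passed between genotypes, and its brightest averaged 9.06 (WT) and 9.02 (p38α∆) without TGF-β and 9.23 (WT) and 9.43 (p38α∆) with it. The part of the transcript that each probeset reads is not given in the sources used here, and these values are no check of the genotype labels. Of 6 mesenchymal markers Itgb1 (10.8 to 11.5 over the 12 arrays), Cd44, Pdgfrb and Nt5e were bright, whereas Eng (4.32 to 4.98) and Thy1 (3.14 to 3.55) were low, and no measured endothelial, leukocyte or epithelial marker exceeded 4.81. Each array carries a number from 1 to 4 whose meaning is not stated. The first principal component (51.2% of the variance) separated the 4 arrays numbered 1 from the others, and for 4 of the 17 probesets the WT array numbered 1 lay far from the other 3 WT arrays. Whether the arrays of a group came from different cultures is not stated, and p-values measure the spread between these arrays only.

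Dusp8 differed most. With TGF-β, RNA of this phosphatase was 3.11-fold and 2.94-fold higher in p38α∆ than in WT MSCs by 2 of its 3 probesets, and the first of them ranked first of all 45037 probesets in that comparison. Dusp10, another phosphatase of p38 and JNK, was also higher in TGF-β-treated p38α∆ MSCs. Dusp6, the cytoplasmic phosphatase of ERK, and Spry4 rose with TGF-β in both genotypes. Without TGF-β no member passed between p38α∆ and WT MSCs, but neither did any other of the 45037 probesets, with only 2 untreated p38α∆ arrays.

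**Figure D1:**
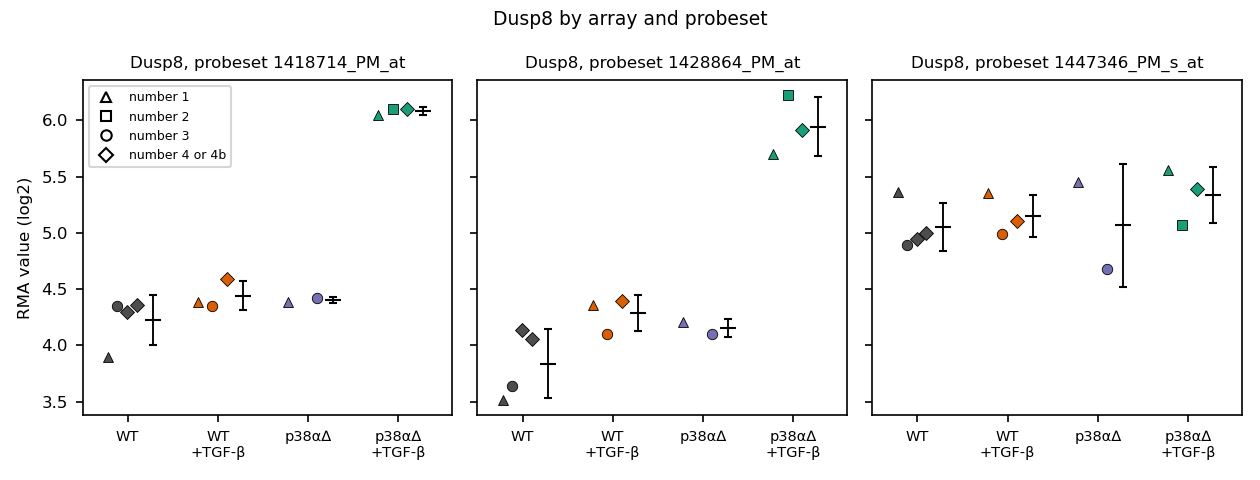
Log2 RMA value (vertical axis) of the 3 probesets of Dusp8 in each array (horizontal axis, the 4 groups). Shapes give the array's number, and bars the group's mean and SD. In the left and middle panels the p38α∆ arrays with TGF-β lie at 5.70 to 6.22, above the other 9 arrays at 3.52 to 4.59, and in the right panel the groups overlap.

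Dusp8 encodes a phosphatase that acts on JNK and p38. Its probeset 1418714_PM_at read 3.89, 4.35, 4.29 and 4.36 in the WT arrays, 4.39, 4.35 and 4.59 in the TGF-β-treated WT arrays, 4.38 and 4.42 in the p38α∆ arrays, and 6.04, 6.10 and 6.10 in the TGF-β-treated p38α∆ arrays. The 9 arrays of the first 3 groups lay between 3.89 and 4.59 and the last 3 stood clear above them. Probeset 1428864_PM_at gave the same picture, with 3.52, 3.64, 4.13 and 4.06 in WT, 4.36, 4.10 and 4.40 in TGF-β-treated WT and 4.21 and 4.10 in p38α∆ MSCs, and 5.70, 6.22 and 5.91 in p38α∆ MSCs given TGF-β. The remaining probeset, 1447346_PM_s_at, ranged from 4.68 to 5.56 with all groups overlapping. The suffix s_at marks probesets whose probes match more than 1 transcript.

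In the presence of TGF-β, the genotypes differed in Dusp8 by 1.64 on the log2 scale by probeset 1418714_PM_at (SE 0.10, adjusted p = 0.000195 in limma), from 4.44 ± 0.13 to 6.08 ± 0.03 (SD, n = 3 each). By 1428864_PM_at the difference was 1.56 (SE 0.14, adjusted p = 0.00323), which ranked 3 of 45037, and by 1447346_PM_s_at it was 0.18 (adjusted p = 0.917). Within number 1, which is 1 array against 1, the first 2 probesets differed by 1.65 and 1.33, and within number 4 by 1.51 and 1.52. Both calls held whichever of the 12 arrays was left out and in each of 9 other settings.

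TGF-β raised Dusp8 in p38α∆ MSCs by 1.64 (SE 0.12, adjusted p = 1.55e-05) and 1.61 (SE 0.16, adjusted p = 0.000184). In WT MSCs the same probesets gave 0.24 (SE 0.09, adjusted p = 0.192) and 0.49 (SE 0.12, adjusted p = 0.0405), and the latter call, when 1 array was left out, held only without WT array 4 or a TGF-β-treated p38α∆ array and was otherwise lost (adjusted p from 0.0576 to 0.201). Without the 4 arrays numbered 1 this probeset gave 0.32 in WT MSCs (adjusted p = 0.402). The difference between the TGF-β responses of the 2 genotypes was 1.40 for 1418714_PM_at (SE 0.15, adjusted p = 0.0451), the first of all probesets, and 1.12 for 1428864_PM_at (SE 0.21, adjusted p = 0.615). Within number 1, the only number with an array in all 4 groups, these differences were 1.16 and 0.64. The call on 1418714_PM_at rested on the full set of arrays: it was lost in 11 of 12 leave-one-out fits, held without WT array 1 (adjusted p = 0.00216), and stood elsewhere between 0.0949 (without WT array 4b) and 0.449 (without p38α∆ array 1), while the difference itself kept between 1.29 and 1.52. In untreated cells Dusp8 did not pass between genotypes by either probeset (0.24, SE 0.11, and 0.44, SE 0.15, adjusted p = 0.987 for both).

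The choice of 1 probeset per gene decides what is seen of Dusp8. In the fit over genes each gene was represented by its probeset of greatest median absolute deviation across arrays, which for Dusp8 was the flat 1447346_PM_s_at (0.34), ahead of 1428864_PM_at (0.31) and 1418714_PM_at (0.09). By standard deviation the flat probeset came last, with 0.27 against 0.90 for 1428864_PM_at and 0.80 for 1418714_PM_at. With the probeset of highest standard deviation, Dusp8 passed over genes between the treated genotypes (adjusted p = 0.00254) and for TGF-β in p38α∆ MSCs (adjusted p = 0.000103).

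The sequence just upstream of Dusp8 was read because this gene differed most. That of Dusp1 was read because it was the only other of 8 members with a listed window to hold the same motif. RefSeq promoter windows (build GRCm38.p6) were listed for 8 members, and the 250 bases before each start were searched on both strands for TGACGTCA, the full cAMP response element (CRE) that CREB and ATF factors bind. The Dusp8 window, chr7:142095285-142095534 on the minus strand, held it at 2 places, whose first bases lie 107 and 63 bases before the start. The Dusp1 window, chr17:26508473-26508722 on the minus strand, held it once, 143 bases before the start. Both are printed 5′ to 3′ with the CRE in capitals.
Dusp8: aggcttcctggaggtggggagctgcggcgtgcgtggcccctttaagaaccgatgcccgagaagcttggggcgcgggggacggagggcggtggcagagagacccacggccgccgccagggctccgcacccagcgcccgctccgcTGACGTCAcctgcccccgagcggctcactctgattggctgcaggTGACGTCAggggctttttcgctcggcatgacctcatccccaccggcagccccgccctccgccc
Dusp1: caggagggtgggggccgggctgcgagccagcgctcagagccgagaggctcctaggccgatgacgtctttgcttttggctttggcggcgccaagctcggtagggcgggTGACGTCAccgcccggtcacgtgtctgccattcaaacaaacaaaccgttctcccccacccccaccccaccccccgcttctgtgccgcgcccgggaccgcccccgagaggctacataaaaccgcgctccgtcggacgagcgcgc
Of 32851 such windows 1.55% held at least 1 CRE and 0.0304%, or 10 windows, held 2 or more. The shorter core TGACG, which lies within every CRE, was in 17.8% of windows and in those of Dusp1, Dusp5, Dusp8 and Dusp16. The AP-1 site TGACTCA was in 4.46% of windows and in no member's, the Smad site CAGAC in 42.2% and in that of Dusp1, and the CArG box of serum response factor in 1.47% and, at 2 places, in that of Dusp5. A match of letters is a description of the window and not a measured binding site. No window was listed for Dusp4 and Spry4.

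Dusp10 (MKP-5) also acts on p38 and JNK. Its probeset 1417163_PM_at read 7.14, 7.14, 6.88 and 7.28 in WT MSCs, 6.83, 6.88 and 6.78 in WT MSCs with TGF-β, 7.27 and 7.12 in p38α∆ MSCs, and 7.44, 7.64 and 7.65 in p38α∆ MSCs with TGF-β. With TGF-β, each p38α∆ array lay above each WT array, and the difference was 0.73 (SE 0.11, adjusted p = 0.0262 in limma), from 6.83 ± 0.05 to 7.58 ± 0.12 (SD, n = 3 each). The second probeset, 1417164_PM_at, was higher in 3 of 3 arrays as well but did not pass (0.45, SE 0.10, adjusted p = 0.142). TGF-β itself moved 1417163_PM_at by −0.28 in WT MSCs (adjusted p = 0.0995) and by 0.37 in p38α∆ MSCs (adjusted p = 0.112). These responses differed by 0.65 (SE 0.16), which had an unadjusted p of 0.00185 in limma and an adjusted p of 0.669. The genotype difference was 0.61 within number 1 and 0.87 within number 4. Its call was lost when TGF-β-treated WT array 1, 3 or 4, TGF-β-treated p38α∆ array 2 or 4, or WT array 3 was left out (adjusted p from 0.0546 to 0.161), while the difference stayed between 0.65 and 0.84.

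Dusp16 (MKP-7), a phosphatase of JNK and p38, read 4.94, 5.94, 5.89 and 6.13 in WT MSCs, 5.74, 6.46 and 6.14 in WT MSCs with TGF-β, 5.82 and 6.31 in p38α∆ MSCs, and 6.66, 7.20 and 7.01 in p38α∆ MSCs with TGF-β by probeset 1418401_PM_a_at. The last group lay above the other 9 arrays. TGF-β raised Dusp16 in p38α∆ MSCs by 0.84 in the fit over genes (SE 0.22, adjusted p = 0.0346), but not past the threshold in the fit over probesets (adjusted p = 0.0569), and when 1 array was left out the call held only without WT array 1 or 4b or TGF-β-treated p38α∆ array 4 (adjusted p otherwise from 0.0503 to 0.171). Against TGF-β-treated WT MSCs the difference was 0.87 (SE 0.19, adjusted p = 0.0976), with 0.91 within number 1 and 0.87 within number 4. The other probeset, 1440615_PM_at, stayed between 3.17 and 3.72, near the lower quartile of all probesets' means (3.36), and passed nowhere.

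Dusp1 (MKP-1), the immediate-early phosphatase of p38, JNK and ERK, read 7.0, 6.77, 6.71 and 7.12 in WT MSCs, 7.0, 6.43 and 7.13 in WT MSCs with TGF-β, 7.10 and 6.79 in p38α∆ MSCs, and 7.55, 7.44 and 7.33 in p38α∆ MSCs with TGF-β. Here too the 3 TGF-β-treated p38α∆ arrays were the highest of the 12. The difference from TGF-β-treated WT MSCs, 0.51 (SE 0.14), did not pass (adjusted p = 0.237), and neither did the TGF-β response in p38α∆ MSCs (0.39, adjusted p = 0.218).

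**Figure D2:**
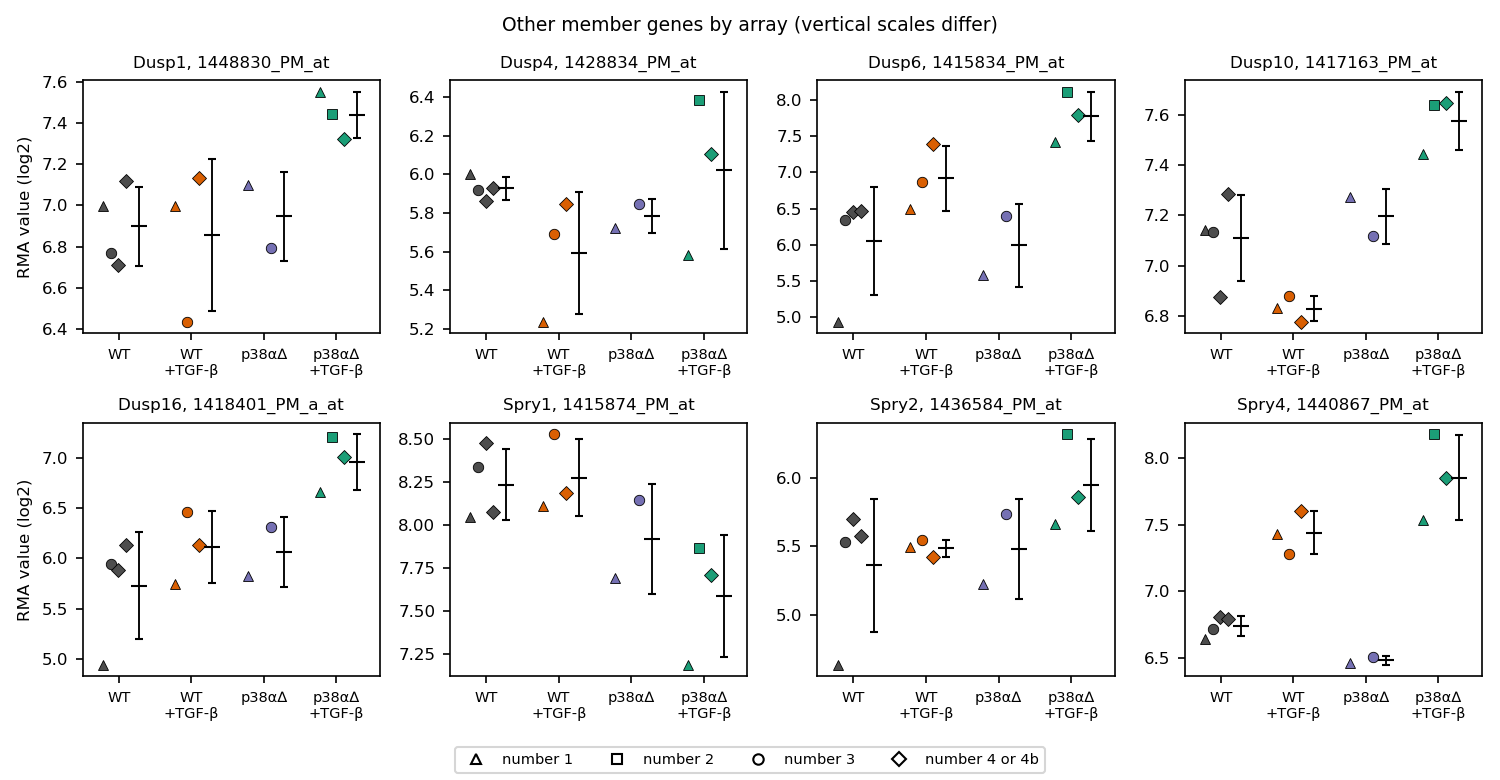
Log2 RMA value (vertical axis, scale set per panel) in each array (horizontal axis, the 4 groups) of the other 8 measured member genes, each by its representative probeset except Spry4, shown by its brightest. Shapes give the array's number, and bars the group's mean and SD. With TGF-β, the 3 arrays of p38α∆ exceed the 3 of WT for Dusp1, Dusp6, Dusp10, Dusp16 and Spry2 and are lower for Spry1, and for Spry4 every treated array exceeds every untreated one.

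Among the phosphatases that prefer ERK, Dusp6 (MKP-3) responded to TGF-β. It read 4.94, 6.35, 6.46 and 6.46 in WT MSCs, 6.49, 6.87 and 7.39 in WT MSCs with TGF-β, 5.59 and 6.40 in p38α∆ MSCs, and 7.42, 8.11 and 7.80 in p38α∆ MSCs with TGF-β. Every treated array lay above every untreated array of its genotype. The rise was 0.94 in WT MSCs (SE 0.23, adjusted p = 0.0207) and 1.61 in p38α∆ MSCs (SE 0.30, adjusted p = 0.00549). Within numbers 1, 3 and 4 it was 1.55, 0.53 and 0.93 in WT MSCs, and within number 1 it was 1.83 in p38α∆ MSCs. The WT call was lost without TGF-β-treated WT array 1 (adjusted p = 0.0886) or 4 (adjusted p = 0.113), and the p38α∆ call without p38α∆ array 1 (adjusted p = 0.0904). The responses of the 2 genotypes differed by 0.66 (SE 0.38, adjusted p = 0.902), and TGF-β-treated p38α∆ MSCs exceeded TGF-β-treated WT MSCs by 0.84 (SE 0.26, adjusted p = 0.303).

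Dusp4 (MKP-2), a nuclear and inducible phosphatase of ERK and JNK, passed in no comparison. It ranged from 5.86 to 6.0 in WT, from 5.24 to 5.85 in TGF-β-treated WT, from 5.72 to 5.85 in p38α∆ and, with TGF-β, from 5.58 to 6.38 in p38α∆ MSCs. TGF-β gave −0.31 (SE 0.14, adjusted p = 0.216) in WT and 0.13 (SE 0.18, adjusted p = 0.789) in p38α∆ MSCs.

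Of the Sprouty genes, Spry4 responded to TGF-β. By its brightest probeset, 1440867_PM_at, it read 6.64, 6.71, 6.81 and 6.79 in WT MSCs, 7.43, 7.28 and 7.60 in WT MSCs with TGF-β, 6.46 and 6.50 in p38α∆ MSCs, and 7.53, 8.18 and 7.85 in p38α∆ MSCs with TGF-β. The rise was 0.72 in WT (SE 0.10, adjusted p = 0.00122) and 1.24 in p38α∆ MSCs (SE 0.13, adjusted p = 0.000249), and both calls held in all 12 leave-one-out fits. Probeset 1422021_PM_at rose by 0.57 (adjusted p = 0.0179) and 1.30 (adjusted p = 0.00072). Its WT call was lost without TGF-β-treated WT array 1 (adjusted p = 0.0837) or 4 (adjusted p = 0.13), whereas its p38α∆ call held in all 12. The representative probeset, 1445669_PM_at, rose by 0.82 (adjusted p = 0.0174) and 0.97 (adjusted p = 0.034) in the fit over genes. There the WT call was lost without WT array 1 or 3 or any TGF-β-treated WT array (adjusted p from 0.0516 to 0.0855). The p38α∆ call was lost without WT array 3 or 4b, TGF-β-treated WT array 1 or either p38α∆ array (adjusted p from 0.0512 to 0.173). In the fit over probesets the rise of 1445669_PM_at passed in WT (adjusted p = 0.0367) but not in p38α∆ MSCs (1.00, adjusted p = 0.0521). The fourth, 1422020_PM_at, rose in p38α∆ MSCs (0.69, adjusted p = 0.0264), a call lost without either p38α∆ array or TGF-β-treated p38α∆ array 2 or 4 (adjusted p from 0.0557 to 0.276), and gave 0.19 in WT MSCs (adjusted p = 0.489). The response in p38α∆ MSCs was the larger one by each of the 4 probesets, by 0.19 to 0.73 in the fit over probesets, but no difference passed (adjusted p of 0.945 to 0.97). Within number 1 this difference was −0.29 for 1445669_PM_at, the other way, and 0.29 to 0.74 for the other probesets. With TGF-β, Spry4 did not pass between genotypes (0.27 to 0.54 over the probesets).

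Spry1 was the one member whose values lay lower in p38α∆ than in WT MSCs with TGF-β. It read 8.05, 8.34, 8.48 and 8.08 in WT MSCs, 8.11, 8.53 and 8.19 in WT MSCs with TGF-β, 7.69 and 8.15 in p38α∆ MSCs, and 7.19, 7.87 and 7.71 in p38α∆ MSCs with TGF-β. Each TGF-β-treated p38α∆ array lay below each WT array, treated or not. The genotype difference with TGF-β, −0.69 (SE 0.14), did not pass (adjusted p = 0.0765), with −0.92 within number 1 and −0.48 within number 4. It passed after quantile normalization (adjusted p = 0.0368) and when dim genes were left out (adjusted p = 0.0451). Spry2 passed in no comparison by either probeset. With TGF-β both lay higher in 3 of 3 p38α∆ arrays than in every TGF-β-treated WT array, by 0.42 (SE 0.20, adjusted p = 0.638) for 1436584_PM_at and by 0.31 (SE 0.14, adjusted p = 0.703) for 1421656_PM_at. Its 2 probesets went apart in WT array 1, where 1436584_PM_at was the lowest of the WT arrays (4.64 against 5.53 to 5.70) and 1421656_PM_at the highest (6.32 against 5.93 to 5.99).

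**Figure D3:**
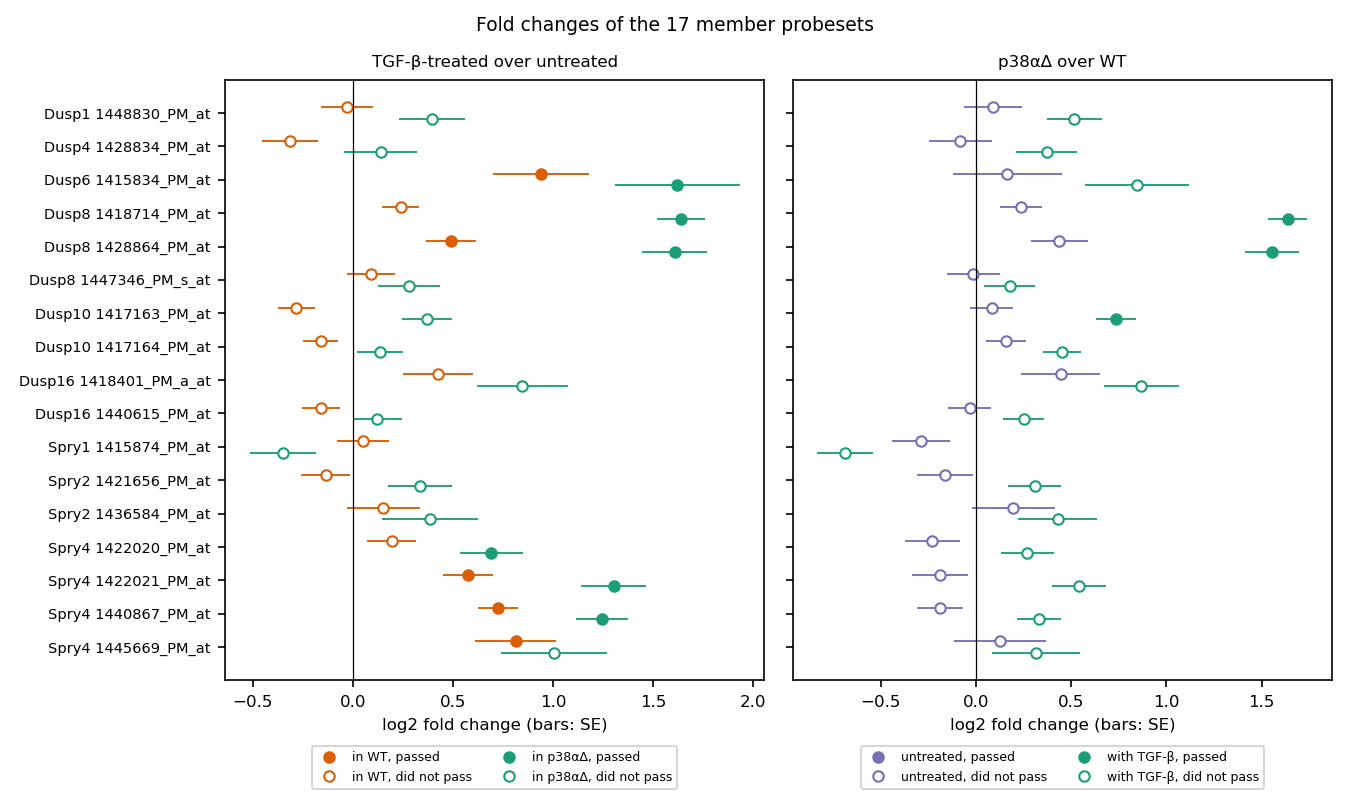
Log2 fold change with its SE (horizontal axis) of each of the 17 probesets (vertical axis) in the fit over probesets, for TGF-β-treated over untreated MSCs of each genotype (left) and for p38α∆ over WT MSCs without and with TGF-β (right), filled where it passed. With TGF-β 16 of 17 probesets lie above 0 in the right panel (21329 of all 45037 probesets do), and the 2 farthest, at 1.64 and 1.56, belong to Dusp8.

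Counted over probesets, TGF-β raised 5 of 17 in WT MSCs (background 2.94% of all probesets higher) and 6 of 17 in p38α∆ MSCs (background 2.43%), and lowered none, where 3.06% and 2.78% of all probesets were lower. The 5 belonged to Dusp6, Dusp8 and Spry4, and so did the 6. With TGF-β, 3 of 17 were higher in p38α∆ than in WT MSCs, namely 2 of Dusp8 and 1 of Dusp10 (background 0.164%). The groups did not overlap for 10 probesets that were higher (background 4.41%) and 1 that was lower (background 3.36%), and 13 of 17 had an unadjusted p under 0.05 in limma (background 7.06%). The median difference was 0.43 for the 17 probesets and −0.01 for all 45037. In untreated cells 0 of 17 passed in limma (background 0%), 1 had an unadjusted p under 0.05 (background 4.55%), and the values ran from −0.29 (Spry1) to 0.45 (Dusp16). The interaction was called for 1 of 17 (background 0.00666% higher, or 3 probesets), the Dusp8 probeset 1418714_PM_at. The members were chosen with earlier results of these data known, and several probesets read the same gene. The counts here and over genes thus describe the set and do not test it against all features.

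Over genes, with 1 probeset each, 2 of 9 were higher with TGF-β in WT MSCs (Dusp6 and Spry4, background 4.51%) and 3 of 9 in p38α∆ MSCs (Dusp6, Dusp16 and Spry4, background 3.40%). Of the genotype comparisons, 1 of 9 was higher with TGF-β (Dusp10, background 0.316%) and 0 of 9 without (background 0%, 1 of 9 at an unadjusted p under 0.05 in limma, background 4.94%). The interaction was called for 0 of 9 in limma (background 0%), with 1 of 9, Dusp10, at an unadjusted p under 0.05 (background 5.38%). These counts were sensitive to how the arrays are related. Without the array number as a block they were 0 for each comparison, and over probesets they were 1 for TGF-β in WT, 4 for TGF-β in p38α∆ and 2 for TGF-β-treated p38α∆ against WT MSCs.

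**Figure D4:**
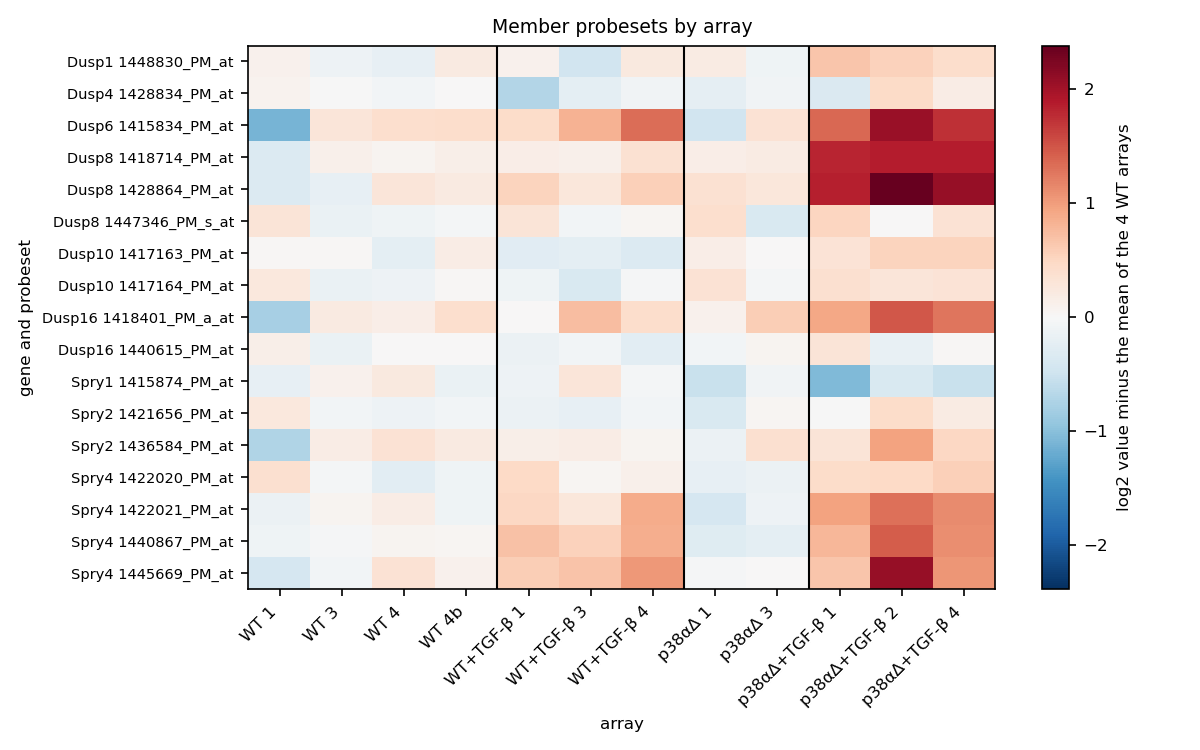
Log2 value minus the mean of the 4 WT arrays (color) for the 17 probesets (vertical axis) in the 12 arrays (horizontal axis). The 2 responding Dusp8 probesets, Dusp6, Dusp16 (1418401_PM_a_at) and 3 of the 4 Spry4 probesets are red in the TGF-β-treated p38α∆ arrays, and WT array 1 is blue for Dusp6, Dusp16 and Spry2 (1436584_PM_at).

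The surrounding pathway was described from lists of genes, with values from the fit over genes. These lists were chosen with earlier results of these data known, so their counts are a description and not a test. Of 15 measured other feedback inhibitors of receptor tyrosine kinases and ERK, 5 rose with TGF-β in each genotype (background 4.51% of all genes higher in WT and 3.40% in p38α∆ MSCs) and none fell (background 5.32% and 4.92% lower). Their median was 0.23 in WT and 0.24 in p38α∆ MSCs, against −0.0065 and −0.0033 for all genes. The 5 were Lrig1, which removes ErbB receptors (1.59 and 1.66), Errfi1, which inhibits the EGF receptor (1.06 and 1.63), Socs3, a cytokine feedback inhibitor (0.78 and 1.06), Spred2, a Sprouty-related inhibitor of Raf activation (0.62 and 0.57), and Lrig3 (0.61 and 0.65). None of the 15 passed between genotypes, with TGF-β (background 0.380% in either direction) or without it (background 0%). Of 17 other dual-specificity and MAP kinase phosphatases, Dusp23 (−0.87 and −0.92) and Dusp18 (−0.36 and −0.94) fell with TGF-β in WT and in p38α∆ MSCs, while Dusp14 (0.91) and Styxl1 (0.42) rose in p38α∆ MSCs. That is 0 higher and 2 lower of 17 in WT MSCs (background 4.51% and 5.32%) and 2 higher and 2 lower in p38α∆ MSCs (background 3.40% and 4.92%), too few to set the list apart from all genes. None of these 17 passed between genotypes either, against the same low shares of all genes.

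Genes that ERK signaling is known to turn on were measured for 19 of 20 listed. With TGF-β 8 rose in WT (background 4.51%) and 10 in p38α∆ MSCs (background 3.40%) and none fell, the largest being Hbegf, an EGF-family ligand (2.50 and 3.51), Egr2, an immediate-early transcription factor (2.14 and 3.00), Ereg, another EGF-family ligand (1.38 and 1.81), and Plaur, the urokinase receptor (1.14 and 1.72). With TGF-β present, 5 of 19 were higher in p38α∆ than in WT MSCs (background 0.316%) and none lower (background 0.0643%). The median was 0.35, against −0.01 for all genes, and the 5 were Hbegf (0.87, adjusted p = 0.0359) and the immediate-early genes Fos (1.22, adjusted p = 0.0262), Egr1 (0.91, adjusted p = 0.0456), Ier2 (0.69, adjusted p = 0.0409) and Ier3 (0.65), the last named only because the count is small. Of 15 measured factors that act upstream of such genes, 3 were higher in the same comparison (background 0.316%), namely Fosb (0.91), Jun (0.89) and Jund (0.68), all subunits of AP-1. TGF-β raised 6 of these 15 in WT MSCs (background 4.51%), with Ets2 (0.86), Ets1 (0.80), Jun (0.78) and Srf (0.64) the largest, and 7 in p38α∆ MSCs (background 3.40%), with Jun (1.69), Fosb (1.39), Junb (1.35) and Elk3 (0.88) the largest. It lowered 1, Mrtfb, in WT MSCs (−0.51, background 5.32%). The comparison of TGF-β-treated p38α∆ with WT MSCs called 65 of all genes in limma. It called 5 without the array number as a block, 4 with it as a fixed term and 5 to 75 when 1 array was left out. The genes of the lists were not followed through these settings.

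Few of the kinases themselves passed. Of 20 measured MAP kinases and direct activators, TGF-β lowered Map2k6, an activator of p38, by −1.62 in WT and −1.19 in p38α∆ MSCs, raised Map2k1 (MEK1) by 0.29 and 0.39, and lowered Mapk12 (p38γ) in WT MSCs by −0.56, and none passed between genotypes. These counts, 1 higher and 2 lower of 20 in WT MSCs (background 4.51% and 5.32%) and 1 higher and 1 lower in p38α∆ MSCs (background 3.40% and 4.92%), do not set the list apart from all genes. Of 14 measured partners of Sprouty proteins, Cbl, the ubiquitin ligase that Sprouty2 binds, rose in WT MSCs (0.80) and Gab1, a docking protein, fell there (−0.77). In p38α∆ MSCs Mknk1, a kinase downstream of ERK and p38, fell (−0.98), as did the adaptor Shc1 (−0.37), and the phosphatase gene Ptpn1 rose in both genotypes (0.27 and 0.37). The counts were again small, with 2 higher and 1 lower of 14 in WT MSCs and 1 higher and 2 lower in p38α∆ MSCs, against the same shares of all genes. As with the kinases, no partner passed between genotypes with TGF-β (background 0.380% in either direction). Without TGF-β no gene of any of these lists did so (background 0%).

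For each member probeset the most similar gene was sought by Pearson correlation over the 12 arrays among 8548 genes of above-median level, as a description over points that share groups and numbers. Map3k4, a MAP kinase kinase kinase upstream of p38 and JNK, was nearest to both responding Dusp8 probesets (r = 0.97 for each), which correlated with each other at 0.98 and with the flat probeset at 0.36 and 0.37. Sgk1, a serum- and glucocorticoid-induced kinase, was nearest to Spry4 by 1440867_PM_at (r = 0.98) and Phlda1, itself on the list of ERK output genes, by 1422021_PM_at (r = 0.97). The nearest genes were Aff1 for Dusp6 (r = 0.97), Prkca, a protein kinase C, for Dusp16 by 1418401_PM_a_at (r = 0.96), Dtx4 for Dusp10 by 1417163_PM_at (r = 0.95), Ndrg1 for Dusp1 and Dtl for Spry1 (r = 0.94 each), Crim1 for Spry2 by 1436584_PM_at (r = 0.93) and Plat, the tissue plasminogen activator, for Dusp4 (r = 0.92). Pxdn was nearest to Spry4 by 1445669_PM_at (r = 0.98), Fam160b1 by 1422020_PM_at (r = 0.92) and Fzd8 to Dusp10 by 1417164_PM_at (r = 0.96). Serpinb6a was nearest to Dusp16 by 1440615_PM_at (r = 0.81) and Cebpa to Spry2 by 1421656_PM_at (r = 0.80). Even the flat Dusp8 probeset had a gene, Ttyh2, at r = 0.96, so a high r alone marks no shared pathway.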

How the data were processed

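RNA from MSCs was amplified and hybridized to 12 Affymetrix MG-430 PM arrays. The authors background-corrected, normalized and summarized the scans with RMA (packages affy and affyPLM), and the deposited values are log2 intensities, 1 per probeset, used without further scaling. Of 45101 probesets 64 controls were left out. Of the 45037 tested, 28898 were annotated to 1 gene, 551 to several and 15588 to none, and only the first were named. Where 1 of several probesets had to stand for a gene (17097 genes), it was the one of highest median absolute deviation over the arrays. Both tables were fitted with limma 3.58.1 (R 4.3.3; lmFit, eBayes), all 12 arrays in 1 model of 4 group means, with the array number as a random block (duplicateCorrelation, 0.52 over genes and 0.46 over probesets; 4b counted with 4). Without the arrays numbered 1 the estimated correlation of the block was 0.11 over genes and 0.11 over probesets. The study's methods adjust for scanning batch, which is not given per array in the sources used here. Values of a gene's representative probeset come from the fit over genes, those of other probesets and all counts of probesets from the fit over probesets. P-values are two-sided and Benjamini-Hochberg adjusted over the whole table, with a threshold of 0.05. The number of arrays limits the precision. Genes named are all members, from each list the called genes with the largest fold changes (at most 4 per comparison), and the most correlated gene of each member probeset. The members and lists were chosen with earlier results of these data known. WT arrays 4 and 4b (r = 0.997 over probesets) differed about as much as WT arrays 3 and 4 (r = 0.997) and were kept as separate arrays. Alternatives covered the block, the scaling, the probeset per gene, the removal of dim features and of each array in turn.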

Additional observations from a re-analysis of the deposited data

Results flagged for a closer look

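In the WT group (n = 4), array 1 lay far from the other 3 arrays for 4 of the 17 member probesets, by a test of the gap to the nearest array against the whole range. It was the lowest for Dusp6 (4.94), for Dusp8 by 1418714_PM_at (3.89) and for Spry2 by 1436584_PM_at (4.64), and the highest for Spry2 by 1421656_PM_at (6.32). Such a test marks about 1 in 20 groups by chance. The TGF-β response of Dusp8 by 1418714_PM_at differed between p38α∆ and WT MSCs, by 1.40 on the log2 scale (adjusted p = 0.0451 in limma). This call held in 1 of 12 leave-one-out fits, the one without WT array 1 (adjusted p = 0.00216). By 1428864_PM_at the difference was 1.12 and did not pass (adjusted p = 0.615).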

How the results depend on the processing

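The Dusp8 calls of 1418714_PM_at and 1428864_PM_at for TGF-β-treated p38α∆ against WT MSCs, and for TGF-β in p38α∆ MSCs, held in every setting that was run. Without the replicate block the counts of member genes called went from 2 to 0 for TGF-β in WT MSCs, from 3 to 0 for TGF-β in p38α∆ MSCs and from 1 to 0 for TGF-β-treated p38α∆ against WT MSCs. With the block as a fixed term the last count was 0, and it was 2 after quantile normalization, with the probeset of highest standard deviation (chosen after seeing the data), with dim features left out and with only the groups compared. Without the arrays numbered 1, also chosen after seeing the data, the first count was 1 and the last 0. Leaving out 1 array at a time gave 0 to 3, 0 to 3 and 0 to 2. Over probesets, the count for TGF-β in WT MSCs (5) was 1 without the block, 3 with WT arrays 4 and 4b averaged or only the groups compared, 2 without the arrays numbered 1 and 1 to 5 leaving out 1 array. That for TGF-β in p38α∆ MSCs (6) was 4 to 7 leaving out 1 array, and that for TGF-β-treated p38α∆ against WT MSCs (3) was 2 to 4. The 1 interaction call was lost (0) without the block, with it as a fixed term, after quantile normalization, with 4 and 4b averaged and without the arrays numbered 1, and gave 0 to 1 leaving out 1 array. Same-numbered arrays of different groups deviated together from their group means at r = 0.068 to 0.858 over 14 pairs. This was strong for numbers 1 and 3 (r of at least 0.689) and weak for number 4 (r of at most 0.364). Of 11 arrays, 8 correlated best with one of their own number. Deviations within a group sum to 0, so the 2 untreated p38α∆ arrays, numbered 1 and 3, deviate oppositely by construction. Agreement for number 3 thus partly mirrors that for number 1, and these r values are no independent check of the block. The cause of the changes in the counts was not tested. Of the values of single members, 36 changed sign, none of them called. Without the block these were, in untreated p38α∆ against WT MSCs, Dusp6 (−0.055), Dusp8 (0.016) and Spry4 (−0.011). With the block as a fixed term it was the interaction of Spry4 (−0.14). With the probeset of highest mean they were Spry2 for TGF-β in WT MSCs (−0.14) and Spry2 (−0.16) and Spry4 (−0.19) in untreated MSCs, and with that of highest standard deviation Dusp8 in untreated MSCs (0.45). Without the arrays numbered 1 they were Spry2 for TGF-β in WT MSCs (−0.12), in untreated MSCs Dusp1 (−0.019), Spry4 (−0.10), Dusp16 1440615_PM_at (0.13) and Spry2 1421656_PM_at (0.14), and Dusp16 1440615_PM_at for TGF-β in p38α∆ MSCs (−0.14) and the interaction (−0.036). With only the groups compared it was Dusp16 1440615_PM_at in untreated MSCs (0.0042). Leaving out 1 array, the values that changed sign ranged for TGF-β in WT MSCs from −0.19 to 0.12 (Dusp1), −0.012 to 0.14 (Spry1) and −0.068 to 0.29 (Spry2). In untreated MSCs they ranged from −0.12 to 0.069 (Dusp4), −0.14 to 0.33 (Dusp6), −0.26 to 0.22 (Dusp8), −0.021 to 0.18 (Dusp10), −0.062 to 0.30 (Spry2), −0.15 to 0.10 (Dusp16 1440615_PM_at) and −0.39 to 0.078 (Spry2 1421656_PM_at). For the interaction they ranged from −0.021 to 0.46 (Dusp8) and −0.088 to 0.35 (Spry4), and for TGF-β in p38α∆ MSCs from −0.020 to 0.23 (Dusp16 1440615_PM_at). Of the other values of single members 1715 kept their direction and side of the threshold, 75 lost a call and 10 gained one. With only the groups compared, TGF-β in p38α∆ MSCs could not be fitted, and the interaction was not run because it uses all groups.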
